A study of Mus musculus with 9 samples.

Results

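Malat1 and Neat1 are long noncoding RNAs of the nucleus, encoded next to each other on the minus strand of mouse chromosome 19. The peaks described here are those that 4 dCLIP libraries of Polycomb repressive complex 2 (PRC2) placed on them. A peak was assigned by its summit, on the minus strand of build mm9, to Malat1 if it lay in 5795000 to 5803000 and to Neat1 if it lay in 5824000 to 5846000. Within Neat1, 5842300 to 5845500 was taken as the short form. This rule used position alone and found 12 of 49266 deposited peaks, 4 on Malat1 and 8 on Neat1. The lists do not name genes and no mm9 annotation was used, so the assignment rests on these intervals. RefSeq on GRCm38.p6 lists both as lncRNA genes, 6983 bp long for Malat1 and 20773 bp for Neat1, so the intervals of 8 and 22 kb are somewhat longer than the genes. No mm9 genome sequence was used, so no bases of the peaks are printed and peaks were not placed in exons.

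The libraries came from female EL 16.7 mouse embryonic stem cells of the CAST/Ei x 129/Sv/Jae hybrid background, differentiated for 7 days. All 4 lines stably expressed the BirA biotin ligase together with an Avi-GFP-tagged PRC2 subunit, mEzh2 in the EZH2 libraries and mSuz12 in the SUZ12 libraries. Each library is 1 stable clone, so a replicate is a clone, and the sources used here do not name the promoter that drives the tagged protein. In dCLIP, RNA crosslinked to the tagged protein by UV light is captured on streptavidin and sequenced. The mock dCLIP library of cells with BirA and an empty vector, and the PRO-seq libraries, were not analysed here, so the background of untagged cells is not known. Peaks per library numbered 10468 to 13951, and no 2 libraries had a peak with the same start and end. The lists do not give read depth, and a list shows only what passed the caller: a library without a peak on an RNA may still have had reads there.

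Malat1 is an abundant RNA of nuclear speckles, the bodies in which splicing factors are stored, and its 3′ end is cut to release a small tRNA-like RNA. Neat1 is the scaffold of paraspeckles, which assemble around it. Its short and long forms start at the same 5′ end, and the long form, which reads on past the polyadenylation site of the short one, is the one needed to build paraspeckles. PRC2 methylates histone H3 in repressed chromatin. EZH2 is its catalytic subunit and SUZ12 a core subunit that EZH2 needs for activity.

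Neat1 carried peaks in every library and Malat1 in 2 of 4. Neat1 had 2 peaks in each of EZH2 replicates 1 and 2 and SUZ12 replicates 1 and 2. Malat1 had 0 and 1 peaks in the EZH2 replicates and 3 and 0 in the SUZ12 replicates. The Neat1 numbers were thus the same in all 4 clones, whereas on Malat1 the clones of each protein differed and 3 of 4 peaks came from SUZ12 replicate 1. No peak lay on the plus strand of either interval in any library, and none lay on either strand of the 21.0 kb between them. On the minus strand, the 20 kb below Malat1 held 0 peaks, while the 20 kb above Neat1 held 4 in 3 libraries: 0 and 1 in the EZH2 replicates and 2 and 1 in the SUZ12 replicates. That is 0.2 peaks per kb with all libraries added, against 0.364 in the Neat1 interval and 0.5 in the Malat1 interval, so peaks were not restricted to the intervals. As no mm9 annotation was used, the stretch above Neat1 may hold other genes, and its value is not a background level.

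**Figure D1:**
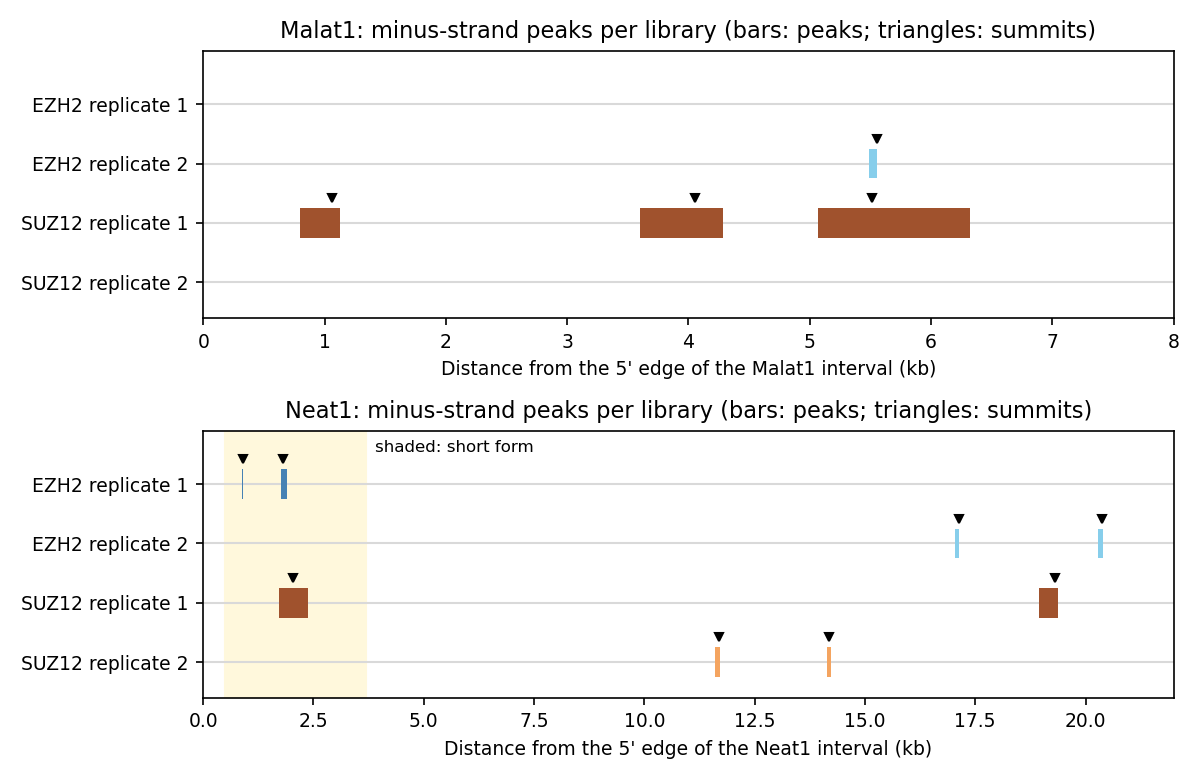
Peaks along Malat1 (top) and Neat1 (bottom) in each library. The horizontal axis is the distance in kb from the 5′ edge of the interval, bars span the peaks to scale, triangles mark summits, and the shaded stretch is the Neat1 short form. Neat1 has 2 peaks in every library, while Malat1 has 1 in EZH2 replicate 2 and 3 in SUZ12 replicate 1.

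Scaled to the length of each list, Malat1 held 0 and 0.754 peaks per 10000 in the EZH2 replicates, a mean of 0.377 ± 0.533 (SD, n = 2). In the SUZ12 replicates it held 2.59 and 0 per 10000, a mean of 1.30 ± 1.83 (SD, n = 2). The proteins overlapped. The difference of -0.918 per 10000, EZH2 minus SUZ12, was smaller than the spread between the SUZ12 clones. It was larger than the spread between the EZH2 clones. The two-sided exact permutation over libraries gave p = 1, where 0.333 is the smallest p that 2 against 2 can give. Without SUZ12 replicate 1 the sign of the difference turned, to 0.377. The 95% Wilson interval of the 3 peaks of SUZ12 replicate 1 was 0.881 to 7.61 per 10000 and that of the single peak of EZH2 replicate 2 was 0.133 to 4.27, so the intervals overlapped as well. They take peaks as independent and cover counting error only. None was computed for the libraries with 0 peaks.

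On Neat1, EZH2 replicates 1 and 2 held 1.91 and 1.51 peaks per 10000, a mean of 1.71 ± 0.285 (SD, n = 2). The SUZ12 replicates held 1.73 and 1.43, a mean of 1.58 ± 0.208 (SD, n = 2). The proteins overlapped and differed by 0.129 per 10000, less than the spread between clones (two-sided exact permutation, p = 0.667). As each library had the same number of peaks, these scaled values differ only through the lengths of the lists. Their Wilson intervals were wide, from 0.524 to 6.96 per 10000 in EZH2 replicate 1 and from 0.393 to 5.23 in SUZ12 replicate 2. With 2 peaks per library, a difference of several fold thus lies within counting error, even if peaks are taken as independent. Apart from the counts, 2 clones against 2 cannot give a permutation p below 0.333 for a difference of any size.

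The numbers were set against windows of the same length tiled along each strand of the genome. Of 31439 windows of 8 kb with any peak, 5.87% held 4 or more peaks in all, as Malat1 did, and 29.0% had a peak in 2 or more libraries. Of 23087 windows of 22 kb with any peak, 6.55% had one in all 4 libraries and 2.04% held 8 or more peaks in all. Neat1 met both, and 0.663% of the windows had 2 or more peaks in every library, as it had. The limits were set at the numbers seen on Malat1 and Neat1 themselves. Tiled windows start at arbitrary places while the intervals were laid over a gene, and the amount of RNA in each window is not known, so these shares describe how dense the intervals were and do not test it.

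**Figure D2:**
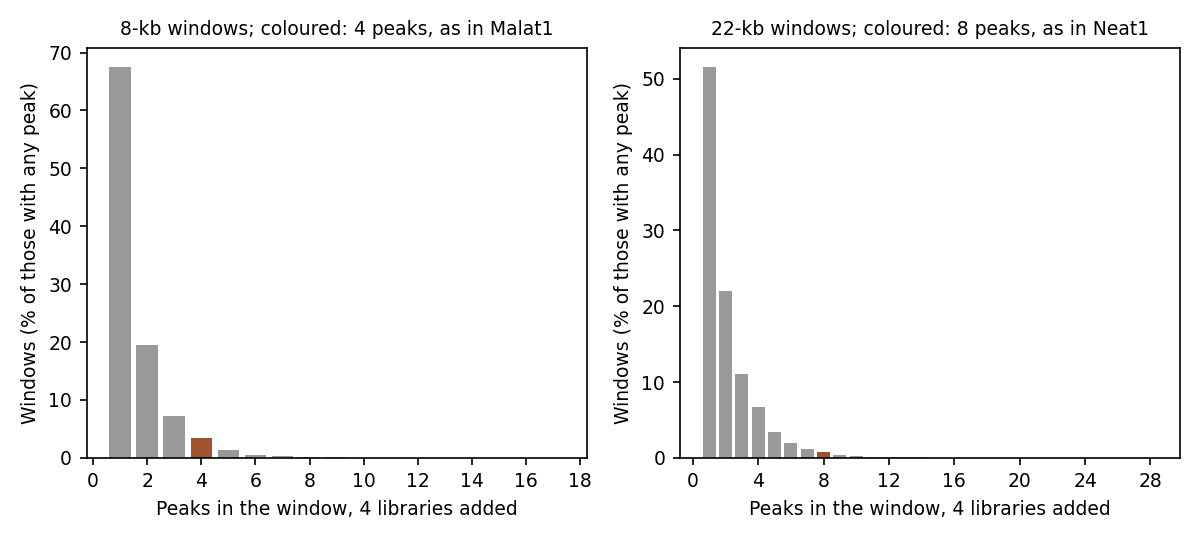
Peaks per stranded window, with the 4 libraries added, as a percentage of the windows that hold any peak, for windows of 8 kb (left) and 22 kb (right). Coloured bars mark windows with as many peaks as Malat1 (4) and Neat1 (8); 5.87% and 2.04% of windows hold at least that many.

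On Malat1, peaks lay in the 5′ end, the middle and the part beyond it towards the 3′ end. Distances are given from its 5′ edge, at the highest coordinate, which is not the transcription start itself. SUZ12 replicate 1 had summits at 1062, 4051 and 5514 bp from that edge. The peaks spanned 5801871 to 5802204, 5798717 to 5799397 and 5796682 to 5797931. The only peak of EZH2 replicate 2, at 5797448 to 5797510, had its summit at 5552 bp, 38 bp from the third of these. The stretch at 69% of the interval was therefore the only part of Malat1 with a peak in more than 1 library, 1 of each protein.

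That Malat1 site was also the strongest in SUZ12 replicate 1, where the peak had a false discovery rate (FDR, as the authors' peak caller gave it) of 3.57e-09 and ranked 153 of 11580 peaks by it. In EZH2 replicate 2 the peak had an FDR of 1.08e-06 and ranked 540 of 13267. The other Malat1 peaks of SUZ12 replicate 1 had FDRs of 1.63e-05 and 2.33e-05 and ranked 906 and 1031. All 4 Malat1 peaks thus stood between the first 1.32% and the first 8.90% of their own list. Here and below, peaks tied on FDR share the best rank of the tie, so each rank or percentage is the most favourable.

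Neat1 peaks fell into different parts of the RNA in different clones. In EZH2 replicate 1 both summits were in the short form, at 904 and 1813 bp from the 5′ edge. In EZH2 replicate 2 both were in the 3′ part of the long form, at 17132 and 20370 bp. SUZ12 replicate 1 had 1 in each, at 2044 and 19312 bp. SUZ12 replicate 2 had both in the middle of the long form, at 11681 and 14179 bp. Hence the equal number of peaks per library came mostly from different places. The 8 peaks formed 7 separate sites, and only a peak of EZH2 replicate 1 and one of SUZ12 replicate 1, both in the short form, overlapped.

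The short form, shared by both Neat1 forms at their 5′ end, held 3 peaks in 3.2 kb, and the 18.3 kb from its 3′ end to the 3′ edge of the interval held 5. The 0.5 kb between the short form and the 5′ edge of the interval held 0. Per kb, with all libraries added, this was 0.938 in the short form and 0.273 in the stretch 3′ of it. That stretch includes what the interval holds beyond the 3′ end of the gene, so its density over the long form alone is somewhat understated. By library, the short form had 2 and 0 peaks in the EZH2 replicates and 1 and 0 in the SUZ12 replicates, and the stretch 3′ of it 0, 2, 1 and 2 in the same order. The higher density per kb of the short form rests on EZH2 replicate 1 and SUZ12 replicate 1, and the replicates numbered 2 had no peak in it. Peaks in the short form cannot be assigned to either form, as both contain it, whereas the 5 others lie 3′ of the short form.

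The peak with the lowest FDR on either RNA was on the Neat1 short form. In SUZ12 replicate 1 the peak at 5843616 to 5844287 had an FDR of 2.03e-36, rank 2 of 5633 on the minus strand and rank 4 of 11580 in the whole library. EZH2 replicate 1 had a narrower peak inside it, at 5844108 to 5844234, with an FDR of 4.86e-09 and rank 172 of 10468. The 2 summits lay 231 bp apart. Neither replicate 2 had a peak there. The nearest minus-strand summits of EZH2 replicate 2 and SUZ12 replicate 2 were 15088 and 9637 bp away from the summit of SUZ12 replicate 1. One of the strongest peaks of a whole library was therefore overlapped by a peak in 1 clone of the other protein and not in the other clone of SUZ12.

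The remaining Neat1 peaks were weaker. The second peak of SUZ12 replicate 1, at 5826632 to 5827052, had an FDR of 5.16e-06 and lay within the first 5.72% of its list. EZH2 replicate 1 had its second at 5845090 to 5845113, close to the 5′ edge, with an FDR of 0.000261, at 22.2% of the list. In EZH2 replicate 2 the peaks at 5825597 to 5825706 and 5828868 to 5828963 had FDRs of 0.000121 and 0.00551 and stood at 18.5% and 83.8%. In SUZ12 replicate 2 those at 5834288 to 5834399 and 5831760 to 5831865 had FDRs of 0.000153 and 0.000213 and stood at 24.4% and 26.4%. Of the 8 Neat1 peaks, 3 stood within the first 5.72% of their library, 2 of these in SUZ12 replicate 1 and 1 in EZH2 replicate 1.

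Recurrence was measured by merging peaks that shared at least 1 bp on the same strand. The 12 peaks formed 10 sites, 3 on Malat1 and 7 on Neat1. Of these, 2 had a peak in 2 libraries, 1 on each RNA, and none had a peak in 3 or 4. Over all 44277 sites of the series, 8.08% had a peak in 2 or more libraries and 2.13% in 3 or more, and numbers as small as 2 and 0 of 10 do not set these sites apart from either share.

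Both shared sites joined an EZH2 clone with SUZ12 replicate 1, and no site joined both clones of a protein. On Malat1 the 63-bp peak of EZH2 replicate 2 lay wholly inside the 1250-bp peak of SUZ12 replicate 1 and covered 5.04% of it. On Neat1 the 127-bp peak of EZH2 replicate 1 lay wholly inside the 672-bp peak and covered 18.9% of it, with summits 231 bp apart. A wide peak meets others more easily, and the part of width in this sharing was not tested. Sharing was lost on both RNAs when each peak had to cover 50% of the other, which peaks of such unequal width cannot do. On Neat1 it was also lost when summits had to lie within 100 bp. The 4 peaks of the shared sites ranked within the first 4.07% of their lists. The other 8 stood between 5.72% and 83.8%, with the nearest summit of another library 1058 to 5451 bp away. These ranks were not set beside those of shared sites over the whole series, and overlap itself brings summits close.

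**Figure D3:**
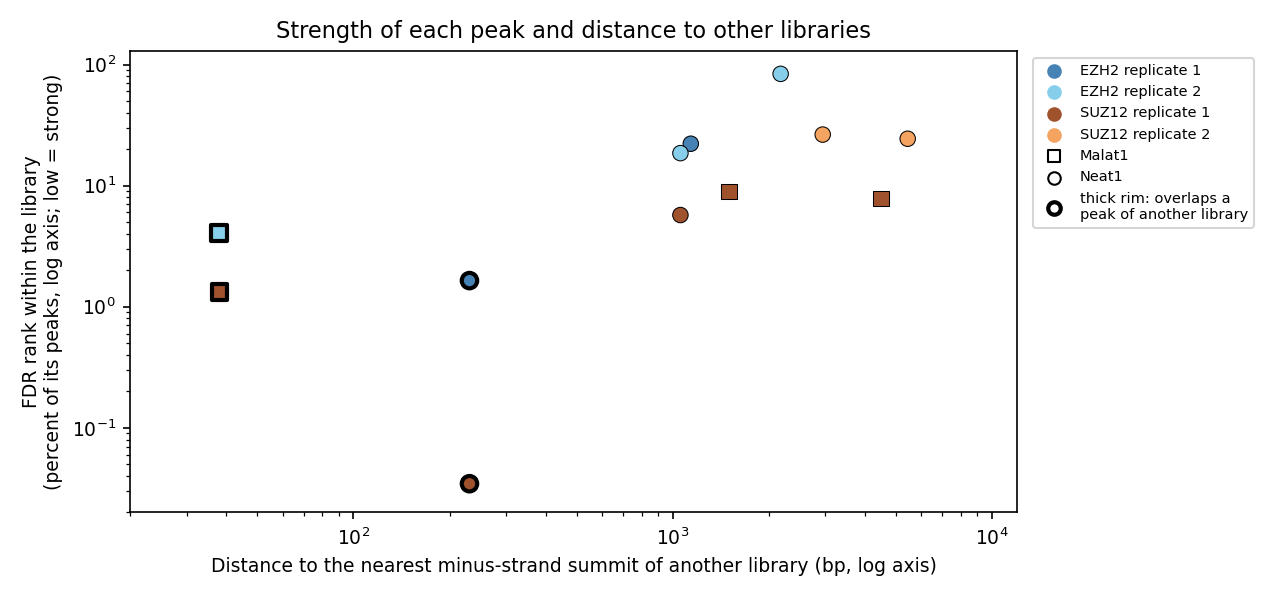
Each of the 12 peaks by its distance to the nearest minus-strand summit of another library (bp, log axis) and its FDR rank as a percentage of the peaks of its own library (log axis, strong peaks low). Squares are Malat1, circles Neat1, and thick rims mark the 4 peaks that overlap one of another library, which lie within 231 bp and rank within the first 4.07%.

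Peak width separated SUZ12 replicate 1 from the other libraries. Its 3 Malat1 peaks were 334, 681 and 1250 bp wide and its Neat1 peaks 421 and 672 bp, against a median of 151 bp over all its peaks. Each was wider than at least 97.0% of the peaks in that library, and all 5 were 300 bp or wider, as were 3.89% of its peaks. The limit of 300 bp was chosen after the widths were seen. Peaks on both RNAs were therefore unusually wide within that library, not only beside the other libraries.

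In the other 3 libraries all 7 peaks were narrower than the median of their list, which was 177 and 188 bp in the EZH2 replicates and 138 bp in SUZ12 replicate 2. The Malat1 peak of EZH2 replicate 2 measured 63 bp. The Neat1 peaks measured 24 and 127 bp in EZH2 replicate 1, 96 and 110 bp in EZH2 replicate 2, and 106 and 112 bp in SUZ12 replicate 2. The 24-bp peak at the 5′ end of Neat1 was wider than only 0.201% of the peaks of its library. No width of SUZ12 replicate 1 overlapped those of the other libraries, which ended at 127 bp.

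The median Neat1 width per library was 75.5 and 103 bp in EZH2, a mean of 89.2 ± 19.4 bp (SD, n = 2), and 546.5 and 109 bp in SUZ12, a mean of 327.8 ± 309 bp (SD, n = 2). The difference of -238.5 bp, EZH2 minus SUZ12, was smaller than the spread between the SUZ12 clones (two-sided exact permutation, p = 0.333, the smallest possible). Without SUZ12 replicate 1 it shrank to -19.8 bp. On Malat1 only 1 clone of each protein had peaks, with medians of 63 and 681 bp, so no test could be made. By bases covered, the peaks of SUZ12 replicate 1 spanned 28.3% of the Malat1 interval and 4.97% of the Neat1 interval. Those of the other libraries spanned at most 0.787% and 0.991%.

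**Figure D4:**
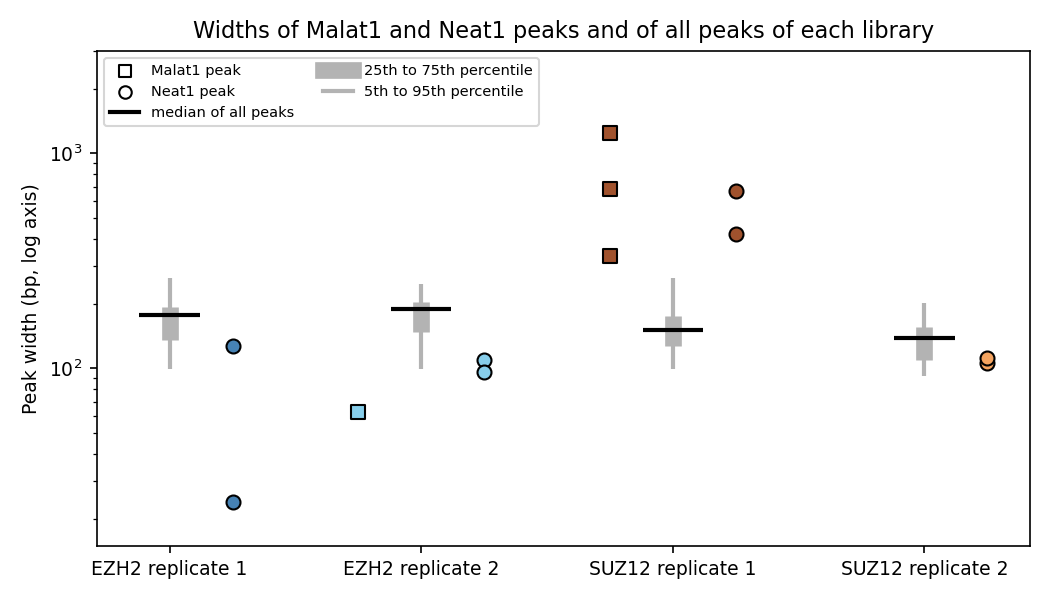
Widths in bp (log axis) of the Malat1 peaks (squares) and Neat1 peaks (circles) in each library. Grey bars give the 25th to 75th and 5th to 95th percentiles of all peaks of the library and black lines their median; the 5 peaks of SUZ12 replicate 1 lie above the 95th percentile and the other 7 below the median.

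The deposited p-values of the Malat1 peaks of SUZ12 replicate 1 also differed in form from most. In the lists, nearly every p is a whole power of 1/2, and 2.32% of all peaks have a p that is not. All 8 Neat1 peaks had such whole powers, from 8 halvings for the weakest peak of EZH2 replicate 2 to 126 for the strongest of SUZ12 replicate 1, and so did the Malat1 peak of EZH2 replicate 2, with 24. The 3 Malat1 peaks of SUZ12 replicate 1 did not, at 18.8, 19.9 and 33.5 halvings. Among peaks of 300 bp or wider in that library, 19.5% had a p of this kind, against 1.65% of narrower ones, so width moves with it. The part of width in this was not tested, and the caller's settings are not stated in the sources at hand. This pattern was looked at after the values were seen.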

How the data were processed

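The members, intervals and tests were chosen with earlier results of these data known. The authors deposited 1 peak list per dCLIP library and strand (8 in all, in mm9), so libraries were not pooled. The deposited lists give the p-value and the false discovery rate (FDR) of each peak as their peak caller wrote them. The caller's version, settings and control are not stated in the sources used here. Per the submitters' processing notes, Trim Galore 0.3.3, TopHat2 2.0.8, SAMtools 0.1.18 and bedtools 2.17.0 were used.

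Starts were converted to count from 1, and summits are given as deposited. Peaks sharing at least 1 bp on a strand were merged over the libraries. This step was tested on simulated peaks of equal width only, with none nested in a wider one. Proteins were compared over 2 clones each by exact enumeration of all splits. Every site with peaks in 2 or more libraries and the lowest-FDR peak per library were to be named; with 12 peaks, all are. Planned gene lists needed an mm9 annotation and were not analysed. Alternatives covered scaling, peak strength, overlap rules, omission of single libraries and a block for replicate number. Python 3.11.15, NumPy 2.4.6, pandas 2.3.3, SciPy 1.17.1 and matplotlib 3.10.9 were used.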

Additional observations from a re-analysis of the deposited data

How the results depend on the processing

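With 2 clones per protein no test could pass a threshold, so only directions are compared. The Malat1 difference in peaks ranged from -2.21 to 0.377 per 10000 when a library was left out, and turned sign only without SUZ12 replicate 1. The Neat1 difference of 0.129 was 0 with unscaled numbers. It turned to -0.496 when only the stronger 50% of each list by FDR was kept and to -2.63 as bases covered per 10000, and ranged from -0.0729 to 0.330 with a library left out, turning without EZH2 replicate 1 or SUZ12 replicate 2. The numbers of shared sites, 1 on each RNA, fell to 0 with a 50% reciprocal overlap and, on Neat1, with summits within 100 bp. With a library left out they ranged from 0 to 1 on each RNA, at 0 without EZH2 replicate 2 or SUZ12 replicate 1 on Malat1 and without EZH2 replicate 1 or SUZ12 replicate 1 on Neat1. The width differences kept their sign in every alternative that could be run. On Malat1 the width difference stayed at -618 bp without EZH2 replicate 1 or SUZ12 replicate 2, which had no Malat1 peak. Leaving out either other library, or the block, gave no value there.

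With the replicate number as a block, the paired differences were unchanged, at -0.918 on Malat1 and 0.129 on Neat1 (exact permutation tests, p = 1 and 0.5, smallest possible 0.5). The labels do not say that a number marks a shared day or batch, and deviations of same-numbered libraries correlated at 0.117 across 846 windows of 1 Mb. Peaks are few, and depth is unknown.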

Other observations

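The nearest minus-strand peaks outside the intervals give values for the same neighbourhood. Below Malat1 every library had its nearest summit at a similar place, 24.0, 24.8, 24.7 and 24.7 kb from the interval edge in EZH2 replicates 1 and 2 and SUZ12 replicates 1 and 2. At 5770187 to 5770419 a site had peaks in 3 libraries, 179, 195 and 157 bp wide in EZH2 replicate 2 and SUZ12 replicates 1 and 2, with FDRs of 6.68e-06, 3.88e-05 and 0.000593. EZH2 replicate 1 had its peak apart from these, at 5770926 to 5771096. This site was thus found in more libraries than any on Malat1 or Neat1, with weaker FDRs than the shared sites of both RNAs, and its SUZ12 replicate 1 peak was narrower than each peak of that library on either RNA. Above Neat1 the nearest summits were spread out, at 57.9, 13.7, 5.61 and 15.6 kb from the interval edge in the same order. Between 5851544 and 5868019 there were 5 sites on that side, each with a peak in 1 library, 3 of them in SUZ12 replicate 1 and 1 each in EZH2 replicate 2 and SUZ12 replicate 2. The site below Malat1 was picked after its values were seen, and no gene is named for these sites because no mm9 annotation was used.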
